A study of Rattus norvegicus with 13 samples.

Results

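The genes described here encode voltage-gated sodium and calcium channels, potassium channels, and the subunits that assemble with them. They were taken from the deposited table by name, as rows whose gene name begins with Kcn, a letter code and a number, with Scn, a number and a or b, or with Cacn, and whose mean over all pups was at least 10 normalized counts. The names matched 99 rows and all 99 passed that minimum, out of 14606 rows that passed it in the whole table of 14716. Each gene had 1 row, 68 of them for potassium, 10 for sodium and 21 for calcium channels. The RNA-Seq libraries were made from the posterior ventricular zone (VZ), the progenitor layer beside the ventricle, cut out by laser capture from male Long Evans rat pups on postnatal day 2. The 7 control pups were born to dams that drank plain deionized water and were euthyroid. The 6 PTU pups were hypothyroid, because their dams drank water with 3 ppm propylthiouracil (PTU), an inhibitor of thyroid hormone synthesis, through pregnancy and lactation. Every pup came from a different litter, so the pups are independent animals.

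Voltage-gated channels open when the membrane depolarizes. Sodium channels carry the upstroke of the action potential, calcium channels couple it to transmitter release and gene expression, and voltage-gated potassium (Kv) channels end it. Inward rectifier (Kir) and two-pore domain (K2P) potassium channels set the resting potential, in glia as well as in neurons, and some potassium channels serve ion transport across epithelia such as the choroid plexus, the tissue that secretes cerebrospinal fluid into the ventricle. Pores are built from alpha subunits, whereas beta, alpha2delta, gamma, KChIP and KCNE subunits change how pores reach the membrane and how they open.

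The deposited values are estimated counts per transcript that the authors divided by a size factor per pup, and are called normalized counts below. The reads behind them, estimated from the smallest step between values, spanned 22287033 to 43500718 in control pups and 28406781 to 44379604 in PTU pups. Markers of radial glia, the stem cells of the VZ, were found for 10 of 10 listed genes, and their summed level spanned 77353 to 106586 normalized counts in controls and 64831 to 84562 in PTU pups. The libraries also held 13 of 13 neuron markers, at sums of 60151 to 88277 in controls and 79144 to 136559 in PTU pups, with 9 of the 13 highest in PTU pup 1. Choroid plexus markers were found for 9 of 9 genes, at sums of 49920 to 141191 in controls and 23204 to 100250 in PTU pups, with all 9 lowest in PTU pup 6. None of these markers was at 0 in any pup. In such bulk samples, fewer cells of a type and less RNA per cell cannot be told apart. PTU pup 1 stood apart in the channel genes: it had the highest value of all 13 pups in 53 of the 99 genes (53.5%), against 17.8% of all tested rows, so values of named channel genes that moved by more than 1.5 times without it are also given without it.

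The transcription start regions of 4 channel genes that recur below are printed to show how different the promoters of genes in one functional group are. Each is the RefSeq window from 250 bases before to 50 bases after the start, in the GRCr8 build, 5′ to 3′ on the gene's strand. Capitals mark, on either strand, GGGCGG (the GC box), CCAAT (the CCAAT box), TATAAA (the TATA box), AGGTCA (the core site of nuclear receptors) and TTCAGCACC (the left part of the neuron-restrictive silencer element). *Cacnb3* (chr7:131666301-131666600, plus strand) and *Scn3a* (chr3:70666149-70666448, minus strand) had the smallest p-values among the genes that were higher in PTU pups. *Kcnj13* (chr9:95518937-95519236, minus strand) and *Kcnj16* (chr10:96517074-96517373, plus strand) are epithelial and glial genes that were lower on average.
Cacnb3: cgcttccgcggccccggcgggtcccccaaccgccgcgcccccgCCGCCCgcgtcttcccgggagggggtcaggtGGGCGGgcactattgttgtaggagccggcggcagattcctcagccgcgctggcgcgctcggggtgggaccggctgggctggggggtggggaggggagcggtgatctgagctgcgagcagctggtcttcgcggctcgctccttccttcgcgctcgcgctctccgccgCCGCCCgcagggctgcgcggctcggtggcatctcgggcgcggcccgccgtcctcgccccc
Scn3a: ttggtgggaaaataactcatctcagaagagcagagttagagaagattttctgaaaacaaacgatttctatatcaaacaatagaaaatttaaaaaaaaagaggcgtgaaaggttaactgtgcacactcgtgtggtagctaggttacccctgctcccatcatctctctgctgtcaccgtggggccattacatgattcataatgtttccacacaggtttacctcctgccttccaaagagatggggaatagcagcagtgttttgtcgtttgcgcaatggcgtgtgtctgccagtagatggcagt
Kcnj13: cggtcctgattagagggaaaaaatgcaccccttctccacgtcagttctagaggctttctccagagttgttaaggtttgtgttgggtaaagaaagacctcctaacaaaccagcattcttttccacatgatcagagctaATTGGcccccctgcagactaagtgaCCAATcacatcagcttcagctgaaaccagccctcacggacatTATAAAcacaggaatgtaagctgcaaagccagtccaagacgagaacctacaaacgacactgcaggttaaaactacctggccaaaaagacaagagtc
Kcnj16: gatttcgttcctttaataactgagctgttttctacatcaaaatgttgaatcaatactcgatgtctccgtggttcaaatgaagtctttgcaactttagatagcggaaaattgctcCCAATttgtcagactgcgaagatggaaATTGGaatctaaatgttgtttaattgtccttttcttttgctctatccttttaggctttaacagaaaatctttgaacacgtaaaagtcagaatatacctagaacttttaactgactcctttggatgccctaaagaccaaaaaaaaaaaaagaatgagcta

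The *Cacnb3* window was 77.7% G and C, with 44 CpG dinucleotides and 3 GC boxes. The *Scn3a* window was 43.3% G and C, with 7 CpG dinucleotides and none of the 5 motifs. The *Kcnj13* window held 1 TATA box and 2 CCAAT boxes, and the *Kcnj16* window, at 34.0% G and C, held 2 CCAAT boxes. Over all 33469 windows of this length in the RefSeq table, the median was 51.7% G and C. The GC box was present in 33.1% of them, the CCAAT box in 37.5%, the TATA box in 14.2%, the nuclear receptor core site in 16.2% and the silencer letters in 0.356%. A window was found for 68 of the 99 genes (68.7%), too few to describe base composition over the group, so that check is void. A match of letters is a description and not a binding site.

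To ask whether PTU exposure went with a different level of any channel gene in the VZ, all 14606 rows were compared between groups with limma on log2(normalized count + 1), with Benjamini-Hochberg adjustment over all rows. The log2 difference below is the PTU mean minus the control mean on that scale, given with its standard error (SE), and every adjusted p is from limma unless a permutation test is named. None of the 99 channel genes had an adjusted p of at most 0.05, and none of all 14606 rows had (0%). The study itself did report differentially expressed genes at an FDR of at most 0.05, with DESeq2, a model of counts. The 0 here thus holds for limma on the log values and does not mean that no gene differs. An unadjusted p under 0.05 was found for 21 of the 99 genes (21.2%), against 16.3% of all rows. Of these, 17 of the 99 (17.2%) were higher in PTU pups, against 8.11% of all rows, and 4 (4.04%) were lower, against 8.20% of all rows. Limma with voom on the estimated reads, which weights each value by a trend of variance with level, also gave 0 genes past the adjusted threshold. At an unadjusted p under 0.05 it gave 18 higher, against 8.24% of all rows, and 4 lower, against 8.48%. When all pups were brought to equal totals, a scaling that lifts the median of all rows by 0.20 (log2), the counts became 27 higher, against 10.8% of all rows, and 0 lower, against 0.555% of all rows. With the replicate number of the pups as a block in the fit, 31 were higher, against 10.1% of all rows, and 4 lower, against 10.2%. The median log2 difference of the 99 genes was 0.26, beside 0.00 over all rows, and 73 of them (73.7%) lay above 0, against 50.7% of all rows. In none of the 99 genes were the 2 groups without overlap; over all rows this occurred in 0.335% toward higher and in 0.260% toward lower values in PTU pups.

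These counts rested in large part on 1 pup. Without PTU pup 1, 6 of the 99 genes (6.06%) were higher at an unadjusted p under 0.05, against 6.64% of all rows, and 6 (6.06%) were lower, against 7.67% of all rows. The median log2 difference of the genes was then 0.11, and 64 of them lay above 0 (64.6%, against 50.2% of all rows). Of the 17 genes first counted as higher, 5 stayed under that p without PTU pup 1 (*Cacnb3*, *Scn3a*, *Cacna2d2*, *Kcnc1* and *Kcna3*), and of the 4 lower genes all 4 did (*Kcne2*, *Cacnb2*, *Kcnj16* and *Kcnq1*). The genes that came under it only without this pup were *Kcnmb2*, on the higher side (log2 difference 0.43 with all pups and 0.56 without it), and *Kcnj13* and *Kcna1*, on the lower side. Leaving out other pups also moved the count of higher genes, to 7 without PTU pup 6 (6.12% of all rows), 10 without control pup 5 (6.73%), 11 without control pup 6 (7.72%), 26 without PTU pup 2 (10.3%) and 30 without PTU pup 4 (8.80%). The count of lower genes became 2 without PTU pup 6, against 6.14% of all rows.

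**Figure D1:**
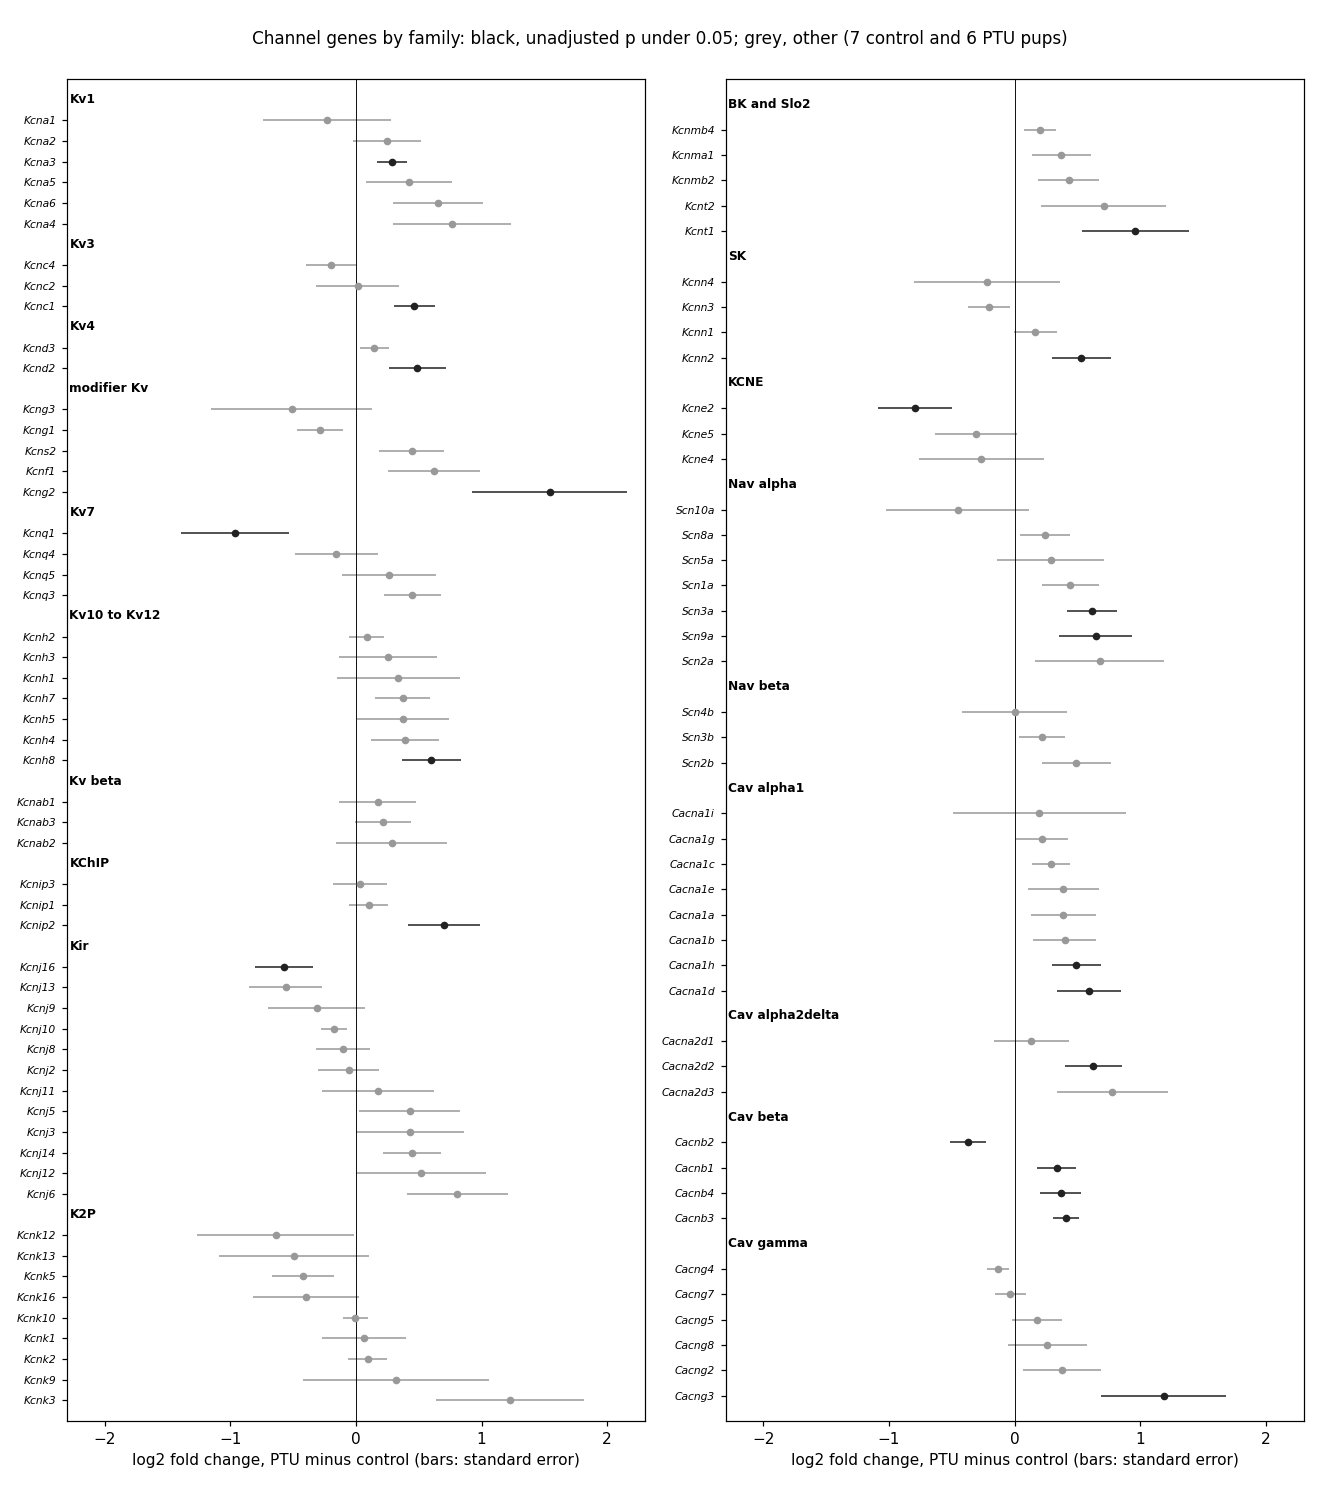
Log2 fold change of each channel gene reported here (x axis, PTU minus control, log2 scale) by family; points are limma estimates, bars standard errors, and black points have an unadjusted p under 0.05. Most points lie to the right of 0, and the black points to the left of it are *Kcnq1*, *Kcne2*, *Kcnj16* and *Cacnb2*.

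Auxiliary calcium channel subunits held the smallest p-value of the group. *Cacnb3* (ENSRNOT00000095350) encodes a cytoplasmic beta subunit that carries high-voltage activated calcium channels to the membrane. Its normalized counts were 1273, 1219, 1395, 1497, 1355, 1415 and 1285 in control pups 1 to 7 and 2333, 1409, 1539, 1773, 1957 and 1857 in PTU pups 1 to 6. All but PTU pup 2 thus lay above every control pup. This gave a log2 difference of 0.41 ± 0.10 (SE, limma adjusted p = 0.132), and 0.33 without PTU pup 1. Without PTU pup 2 the adjusted p was 0.0382, over a range of 0.0382 to 0.40 across all alternatives, which made *Cacnb3* the one channel gene past the threshold under any of them. In that setting 179 of the 14606 rows passed, so 1 of 99 channel genes was near the share of all rows.

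Values of the other 3 beta subunit genes did not all lie on the same side. *Cacnb1*, the subunit of skeletal muscle that brain also uses, averaged 341 ± 47.3 normalized counts in controls (SD, n = 7) and 439 ± 121 in PTU pups (SD, n = 6), with a log2 difference of 0.34 (limma adjusted p = 0.295) that was 0.21 without PTU pup 1. *Cacnb4*, a neuronal subunit, spanned 183 to 364 (median 307) in controls and 293 to 467 (median 356) in PTU pups, a log2 difference of 0.37 (adjusted p = 0.28). *Cacnb2*, the main subunit of heart, spanned 278 to 393 (median 344) in controls and 212 to 315 (median 250) in PTU pups. In 6 of 6 PTU pups it was under the control mean, and in 4 under every control pup, with a log2 difference of -0.37 ± 0.14 (SE, limma adjusted p = 0.218) that was -0.41 without PTU pup 1 and -0.17 with equal totals.

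The alpha2delta subunits are extracellular proteins that raise the number of calcium channels at the surface. *Cacna2d2* spanned 192 to 399 normalized counts (median 351) in control pups and 342 to 989 (median 459) in PTU pups, of which 4 exceeded every control pup. The groups were apart by a log2 difference of 0.63 ± 0.23 (SE, limma adjusted p = 0.194), and 0.44 without PTU pup 1. The related *Cacna2d1* spanned 296 to 868 and 307 to 1229, with a log2 difference of 0.13 (adjusted p = 0.854) that turned to -0.12 without PTU pup 1, over a range of -0.12 to 0.29 across pups left out. *Cacna2d3*, named because 1 pup moved its value, had a log2 difference of 0.78 (adjusted p = 0.386) that was 0.39 without PTU pup 1, which measured 998 against 95.0 to 518 in the other PTU pups.

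All 8 genes of the pore-forming alpha1 subunits of calcium channels had log2 differences above 0, against 50.7% of all rows, with a median of 0.39. At an unadjusted p under 0.05, 2 of them were higher, against 8.11% of all rows. *Cacna1d*, an L-type pore, spanned 143 to 357 normalized counts (median 294) in controls and 243 to 858 (median 375) in PTU pups. *Cacna1h*, a low-threshold T-type pore, spanned 334 to 628 (median 459) and 456 to 1006 (median 618). PTU pup 1 was the highest pup for both, and 3 of 6 PTU pups exceeded every control pup. Their log2 differences were 0.59 and 0.49 (limma adjusted p = 0.273 and 0.239), and 0.37 for each without PTU pup 1. *Cacna1e*, the R-type pore, spanned 562 to 1155 in controls and 476 to 2339 in PTU pups (log2 difference 0.39, adjusted p = 0.505), with a log2 difference of 0.14 without PTU pup 1, 0.26 without PTU pup 6 and 0.60 without PTU pup 4. Without PTU pup 1 the median of the 8 genes was 0.14, and 7 of them lay above 0, against 50.2% of all rows. None of them then had an unadjusted p under 0.05, against 6.64% of all rows on the higher and 7.67% on the lower side.

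The gamma subunits named *Cacng* are mostly partners of AMPA type glutamate receptors. *Cacng3* was a low transcript, at 13.9 to 110 normalized counts (median 41.8) in controls and 29.9 to 302 (median 101) in PTU pups, with a log2 difference of 1.19 ± 0.50 (SE, limma adjusted p = 0.26) and 0.87 without PTU pup 1. *Cacng4* had narrow ranges of 6243 to 8707 in controls and 6277 to 7979 in PTU pups. The fit gave a log2 difference of -0.13 ± 0.09 (SE, limma adjusted p = 0.461), and 0.07 with equal totals. The other 4 genes of the family had log2 differences from -0.03 to 0.38.

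Among the sodium channels, the alpha subunits form the pore. *Scn3a* (ENSRNOT00000006646), the pore that is prominent in the brain before and around birth, measured 1017, 798, 637, 876, 695, 1067 and 1024 normalized counts in control pups 1 to 7. In PTU pups 1 to 6 it measured 2070, 895, 1539, 869, 1123 and 1888. PTU pups 2 and 4 lay within the control range and the other 4 above it. It had a log2 difference of 0.62 ± 0.20 (SE, limma adjusted p = 0.173), and 0.49 without PTU pup 1 (adjusted p = 0.262, over a range of 0.0612 to 0.40 across all alternatives).

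*Scn2a*, which supplies the axon initial segment of young neurons, was spread far more widely. It measured 1279, 513, 449, 710, 224, 386 and 1137 normalized counts in control pups 1 to 7 and 4518, 416, 1130, 377, 493.5 and 1526 in PTU pups 1 to 6. PTU pup 1 stood far above the next pup of its group. Of the 6 PTU pups, 3 exceeded the control mean. This gave a log2 difference of 0.68 with a standard error of 0.51 (limma adjusted p = 0.522), and 0.22 without PTU pup 1. *Scn9a*, known best from sensory neurons, spanned 46.4 to 175 in controls and 102 to 279 in PTU pups (log2 difference 0.65, adjusted p = 0.285, and 0.43 without control pup 5). The 4 further alpha subunit genes had log2 differences from -0.45 to 0.44, with adjusted p-values of 0.335 or more.

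Sodium channel beta subunits are small adhesion-like proteins that modulate the pore. *Scn2b* spanned 133 to 338 normalized counts in controls and 141 to 477 in PTU pups, with a log2 difference of 0.49 (limma adjusted p = 0.377). *Scn3b* spanned 1530 to 2043 and 1453 to 4004, with 3 of 6 PTU pups over the control mean. Its log2 difference of 0.22 (adjusted p = 0.571) was 0.04 without PTU pup 1 and 0.33 without PTU pup 5, the ends of its range over pups left out. For the remaining gene it was 0.00.

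**Figure D2:**
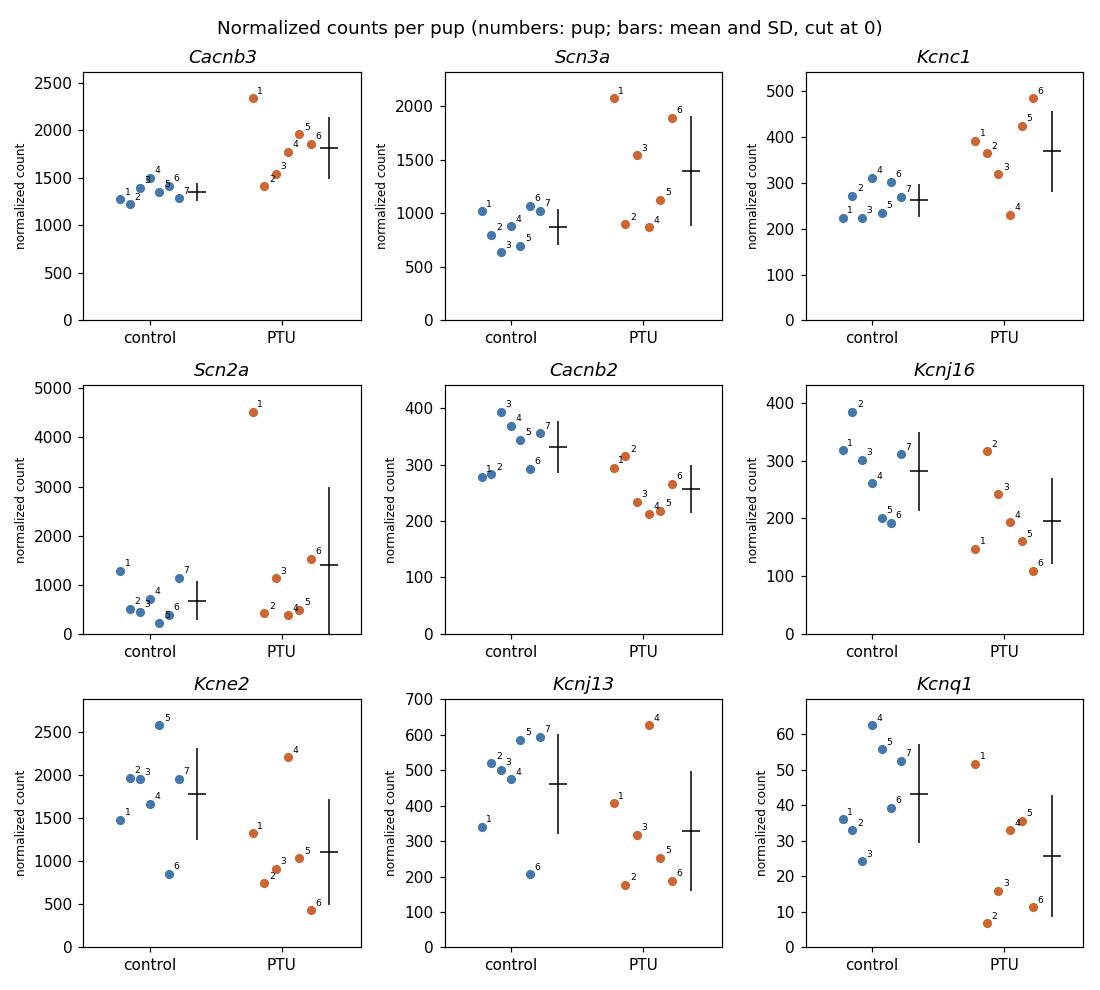
Normalized counts (y axis, linear from 0) of 9 channel genes in each control (blue) and PTU (orange) pup, with pup numbers, group mean and SD. *Cacnb3* lies above the control range in 5 of 6 PTU pups, *Scn2a* is highest in PTU pup 1, and *Kcne2* and *Kcnj13* are lowest in PTU pups 6 and 2.

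The voltage-gated potassium channel pores, counting the modifier subunits, comprised 29 genes, of which 23 had a log2 difference above 0, against 50.7% of all rows. At an unadjusted p under 0.05, 5 of them were higher, against 8.11% of all rows, and 1 was lower, against 8.20%. Without PTU pup 1, 18 lay above 0, against 50.2% of all rows, 2 were higher at that p (*Kcnc1* and *Kcna3*), against 6.64%, and 2 lower (*Kcnq1* and *Kcna1*), against 7.67%, so that both counts were near the share of all rows. *Kcnc1* encodes a Kv3 pore that lets neurons fire fast. It measured 223, 271, 224, 311, 235, 302 and 270 normalized counts in control pups 1 to 7 and 391, 364, 319, 230, 424 and 483 in PTU pups 1 to 6. All PTU pups but pup 4 exceeded every control pup. The groups were apart by a log2 difference of 0.46 ± 0.16 (SE, limma adjusted p = 0.189), and 0.44 without PTU pup 1.

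*Kcna3*, a Kv1 pore also known from microglia and lymphocytes, spanned 696 to 953 normalized counts (median 786) in controls and 771 to 1234 (median 1044) in PTU pups. The fit gave a log2 difference of 0.29 ± 0.12 (SE, limma adjusted p = 0.251), and 0.27 without PTU pup 1, and 4 of 6 PTU pups lay above every control pup. The other 5 Kv1 genes had log2 differences from -0.23 to 0.77. One of them, *Kcna1*, is named because its value turned on PTU pup 1, which was seen in the data: its log2 difference was -0.23 (limma adjusted p = 0.852) with all pups and -0.78 (adjusted p = 0.321) without that pup.

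The Kv4 pores carry the transient A-type current of dendrites, and KChIP proteins are their calcium-binding partners. *Kcnd2* spanned 518 to 879 normalized counts (median 811) in controls and 672 to 2330 (median 959) in PTU pups, a log2 difference of 0.49 (limma adjusted p = 0.295) that was 0.27 without PTU pup 1. *Kcnd3* spanned 900.2 to 1223 and 922 to 1592 (log2 difference 0.15, adjusted p = 0.549, and 0.04 without PTU pup 6). *Kcnip2* spanned 98.3 to 192 in controls and 132 to 560.0 in PTU pups, with 4 of 6 PTU pups above every control pup. It had a log2 difference of 0.70 ± 0.29 (SE, limma adjusted p = 0.248), and 0.46 without PTU pup 1. The other 2 KChIP genes had log2 differences of 0.04 and 0.10.

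Modifier Kv genes encode subunits that form no channel alone and join Kv2 pores. *Kcng2* was among the lowest transcripts, at 1.86 to 21.0 normalized counts (median 12.1) in controls and 7.93 to 128 (median 26.0) in PTU pups. Its log2 difference was 1.54 with a standard error of 0.62 (limma adjusted p = 0.241), and 0.99 with a pseudocount of 10. All 6 PTU pups had less *Kcng1* than the control mean, at 549.9 ± 178 normalized counts in controls (SD, n = 7) and 433 ± 46.4 in PTU pups (SD, n = 6), a log2 difference of -0.29 (adjusted p = 0.437) that was -0.17 without control pup 5 and -0.08 with equal totals.

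All 7 genes of the Kv10 to Kv12 families, which include the ERG channels, had log2 differences above 0, against 50.7% of all rows, with a median of 0.37. Without PTU pup 1, 5 of the 7 lay above 0, against 50.2% of all rows, with a median of 0.16. None then had an unadjusted p under 0.05, against 6.64% of all rows on the higher and 7.67% on the lower side. *Kcnh8* spanned 65.0 to 131 normalized counts (median 83.4) in controls and 100.4 to 224 (median 122) in PTU pups and exceeded the control mean in every PTU pup (log2 difference 0.60 ± 0.23 SE, limma adjusted p = 0.232). *Kcnh2*, the ERG pore best known from the heart, spanned 227 to 350 and 229 to 358 (log2 difference 0.09, adjusted p = 0.796, and 0.02 without control pup 5 and 0.18 without PTU pup 4). In the Kv7 family, *Kcnq3*, a pore of the neuronal M-current, spanned 243 to 455 and 242 to 828 (log2 difference 0.45, adjusted p = 0.336, and 0.27 without PTU pup 1), and *Kcnq1* lay on the other side, as described with the epithelial genes below. Among the cytoplasmic Kv beta subunits, *Kcnab3* averaged 86.4 ± 25.2 (SD, n = 7) and 98.3 ± 16.9 (SD, n = 6), and *Kcnab1* averaged 96.6 ± 27.6 and 115 ± 62.7, with log2 differences of 0.22 and 0.17 (adjusted p = 0.655 and 0.817). Without control pup 5 the value of *Kcnab3* was 0.11, and without PTU pup 1 that of *Kcnab1* turned to -0.06, over a range of -0.06 to 0.33 across pups left out.

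Channels opened by intracellular calcium or sodium shape the pause after a spike. *Kcnt1*, a sodium-activated pore, spanned 13.9 to 46.3 normalized counts (median 32.0) in controls and 16.5 to 134 (median 57.1) in PTU pups, with 4 of 6 PTU pups above every control pup. This gave a log2 difference of 0.96 ± 0.43 (SE, limma adjusted p = 0.283), and 0.94 without PTU pup 1. *Kcnn2*, a small-conductance calcium-activated (SK) pore, spanned 82.9 to 241 (median 189) and 207 to 382 (median 228), in every PTU pup more than the control mean (log2 difference 0.53, adjusted p = 0.28). *Kcnn1*, another SK pore, had a log2 difference of 0.17 (adjusted p = 0.647) that was 0.085 without PTU pup 5. *Kcnmb4*, the brain beta subunit of the BK channel, spanned 371 to 590 and 511 to 789; each PTU pup exceeded the control mean, with a log2 difference of 0.20 (adjusted p = 0.444) that was 0.11 without PTU pup 1.

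The genes that were lower on average belonged in part to channels of the choroid plexus epithelium. *Kcne2* (ENSRNOT00000093948) encodes a single-pass subunit that joins *Kcnq1* pores at the apical face of that epithelium. It measured 1484, 1974, 1954, 1667, 2578, 854 and 1958 normalized counts in control pups 1 to 7 and 1326, 746, 911, 2208, 1038 and 431 in PTU pups 1 to 6. PTU pups 2 and 6 lay below every control pup, while PTU pup 4 was above all control pups but 1. The groups were apart by a log2 difference of -0.79 ± 0.30 (SE, limma adjusted p = 0.209), and -0.88 without PTU pup 1.

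*Kcnq1*, its partner, was a low transcript, at 24.2 to 62.4 normalized counts (median 39.3) in controls and 6.75 to 51.6 (median 24.4) in PTU pups. Its log2 difference was -0.96, with a standard error of 0.43 (limma adjusted p = 0.283), and without PTU pup 1 it was -1.22. *Kcnj13*, an inward rectifier of the same apical membrane, measured 340.2, 519.9, 501, 475, 587, 206 and 595 in control pups 1 to 7 and 407, 177, 318, 626, 253 and 188 in PTU pups 1 to 6. The fit gave a log2 difference of -0.56 ± 0.29 (SE, limma adjusted p = 0.347), -0.65 without PTU pup 1 and -0.36 with equal totals.

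Choroid plexus markers were lower beside these genes. All 9 listed markers had log2 differences below 0, from -1.18 to -0.57 with a median of -0.79. At an unadjusted p under 0.05, 6 of them were lower, against 8.20% of all rows. Transthyretin (*Ttr*), the main secreted protein of that epithelium, averaged 91587 ± 25254 normalized counts in controls (SD, n = 7) and 51490 ± 22179 in PTU pups (SD, n = 6), a log2 difference of -0.90 (limma adjusted p = 0.161). Some of the pups at the extremes were shared: control pup 6 had the lowest marker sum, the lowest *Kcne2* and the lowest *Kcnj13* of its group, and PTU pup 4 had the highest of each in its own. At the other ends, the highest control was pup 2 for the marker sum, pup 5 for *Kcne2* and pup 7 for *Kcnj13*, and the lowest PTU pup was pup 6 for the marker sum and *Kcne2* but pup 2 for *Kcnj13*. *Kcnq1* did not share the first extremes, as its lowest control was pup 3 (24.2 normalized counts, against 39.3 in pup 6) and its highest PTU pup was pup 1 (51.6, against 33.0 in pup 4). By the study's account, choroid plexus was not among the captured cells. The part of this tissue in the values of *Kcne2*, *Kcnq1* and *Kcnj13* was not tested.

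A pair of Kir genes is known from glia. *Kcnj10*, the main inward rectifier of astrocytes and other glia, spanned 1498 to 1772 normalized counts (median 1569) in controls and 995 to 1632 (median 1487) in PTU pups, with PTU pup 6 at the low end. It had a log2 difference of -0.18 ± 0.10 (SE, limma adjusted p = 0.407), which was -0.07 without PTU pup 6 and 0.03 with equal totals. *Kcnj16*, which forms mixed channels with the *Kcnj10* product, measured 318, 384, 301, 260.5, 201, 193 and 311 in control pups 1 to 7 and 147, 316, 242, 193, 160.4 and 109.6 in PTU pups 1 to 6. Of the PTU pups, 3 lay below every control pup and 1, pup 2, above the control mean. This gave a log2 difference of -0.57 ± 0.23 (SE, limma adjusted p = 0.24), -0.51 without PTU pup 1 and -0.37 with equal totals. All 6 listed astrocyte markers had log2 differences below 0, with a median of -0.19, as had 9 of 10 radial glia markers, with a median of -0.28. At an unadjusted p under 0.05, 2 astrocyte and 5 radial glia markers were lower, against 8.20% of all rows. The summed level of the astrocyte markers spanned 28404 to 36565 in controls and 20011 to 32295 in PTU pups, and the part of both lists in these values was not tested.

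The Kir family as a whole spread evenly around 0. Of its 12 genes, 6 had log2 differences above 0 and 6 below, with a median of 0.06, and without PTU pup 1 the median was 0.02, with 7 above and 5 below. Of the 9 K2P leak channel genes, 4 lay above 0 and 5 below, but 2 above and 7 below without PTU pup 1, with a median of -0.19. *Kcnk10*, a mechanosensitive leak pore, averaged 740 ± 79.4 normalized counts in controls (SD, n = 7) and 736 ± 64.4 in PTU pups (SD, n = 6), a log2 difference of -0.00 ± 0.10 (SE, limma adjusted p = 0.987) that became -0.03 without PTU pup 1 and 0.20 with equal totals. *Kcnk3*, an acid-sensitive leak pore, spanned 1.32 to 42.8 in controls and 15.5 to 81.4 in PTU pups, with a log2 difference of 1.23 and a standard error of 0.59 (adjusted p = 0.315) that was 0.72 without control pup 2, the lowest. The 58 genes not named by the rule lay between -0.64 and 0.81, at limma adjusted p-values of 0.328 to 1.00.

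**Figure D3:**
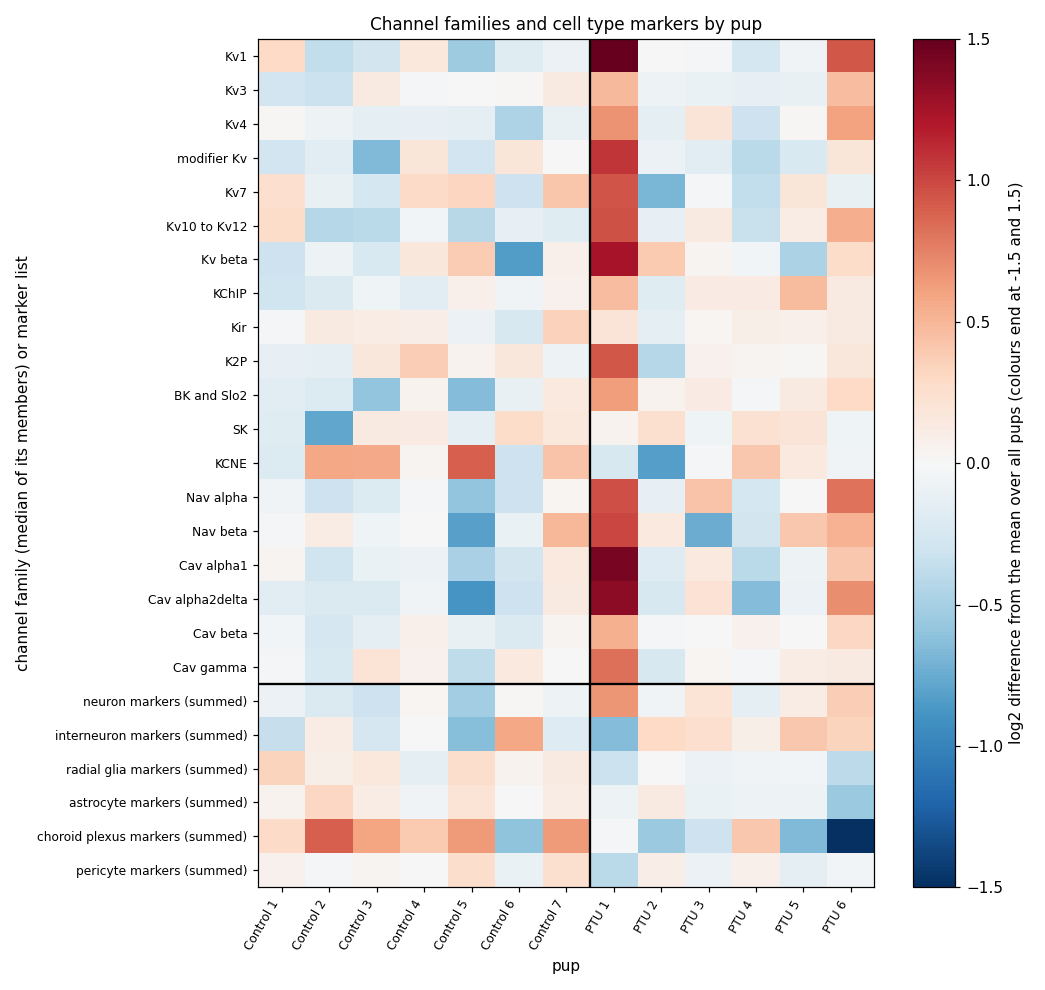
Median over the genes of each channel family (upper rows) and summed level of 6 cell type marker lists (lower rows) in each pup, as the log2 difference from the mean over all 13 pups (colour; red higher, blue lower). PTU pup 1 is above 0 in every channel family shown but KCNE and in the neuron markers, and below 0 in the interneuron markers, and PTU pup 6 is blue in the choroid plexus markers.

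The PTU pups were not alike. The median over the 99 genes of the log2 difference from the mean of all pups was 0.90 in PTU pup 1 and 0.30 in PTU pup 6, but -0.14, 0.06, -0.12 and 0.04 in PTU pups 2 to 5, and it ranged from -0.24 to 0.09 in control pups. PTU pup 1 exceeded every control pup in 61 of the 99 genes (61.6%, against 24.5% of all rows), PTU pup 6 in 48 (48.5%, against 19.1%) and PTU pup 4 in 7 (7.07%, against 15.8%). At the low end, control pup 5 had the lowest value of all pups in 24 genes (24.2%, against 10.5% of all rows). These pups also held the extremes of the neuron markers, with the highest sums in PTU pups 1 and 6 (136559 and 111937 normalized counts) and the lowest in control pup 5 (60151). The neuron markers had a median log2 difference of 0.39, and all 13 lay above 0, against 50.7% of all rows. At an unadjusted p under 0.05, 6 of them were higher, against 8.11% of all rows. The part of neuron content in the channel values was not tested.

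**Figure D4:**
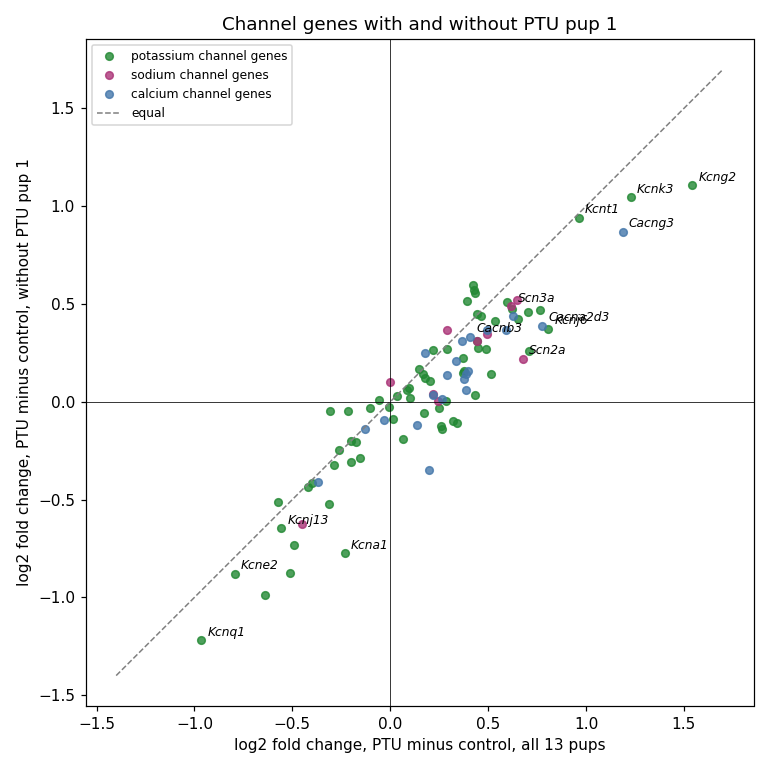
Log2 fold change (PTU minus control) of the channel genes reported here with all 13 pups (x axis) and without PTU pup 1 (y axis); the dashed line marks equal values and colours the channel class. Most points lie below the line, as the value was lower without this pup in 82 of all 99 genes. These include genes already below 0 that moved further from it, such as *Kcnq1* (-0.96 to -1.22). Among the named genes, *Scn2a* drops from 0.68 to 0.22, whereas *Kcnt1* stays near 0.94.

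To compare channel genes within a pup, where the scaling between pups cancels, log2 ratios of related genes were tested with exact permutation over all 1716 regroupings of the pups. The ratio of *Scn2a* to *Scn3a* averaged -0.58 ± 0.75 in controls (SD, n = 7) and -0.52 ± 0.90 in PTU pups (SD, n = 6), apart by 0.06 (two-sided exact permutation, p = 0.903). The ratio of *Kcnj10* to *Kcnj13*, a glial and an epithelial inward rectifier, averaged 1.87 ± 0.54 and 2.25 ± 0.62 and exceeded the control mean in 5 of 6 PTU pups (difference 0.38, two-sided exact permutation, p = 0.254). The ratio of *Cacnb3* to *Cacnb4* averaged 2.23 ± 0.36 and 2.27 ± 0.16 (difference 0.04, two-sided exact permutation, p = 0.815). Adjusted over these 3 ratios the p-values were 0.903, 0.762 and 0.903, so no shift between the paired genes was detectable with these pups.

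A further list held 81 genes of other channels, pumps and channel partners that the naming rule does not match, of which 69 had a row. None had an adjusted p of at most 0.05 in limma. At an unadjusted p under 0.05, 9 of the 69 were higher, against 8.11% of all rows, and 7 lower, against 8.20% of all rows, and the median log2 difference was 0.14. PTU pup 1 stood apart here too, with a summed level of 138008 normalized counts. The other PTU pups spanned 82782 to 91049 and the control pups 82861 to 95668. Values of this list without PTU pup 1 are not given, so how far its counts and differences rest on that pup was not tested. *Slc12a5*, the chloride extruder of maturing neurons, averaged 156 ± 74.7 normalized counts in controls (SD, n = 7) and 371 ± 271 in PTU pups (SD, n = 6), a log2 difference of 1.14 (adjusted p = 0.182). It spanned 59.0 to 277 in controls and 180 to 854 in PTU pups. *Ank3*, the scaffold that holds sodium channels at the axon initial segment, had a log2 difference of 0.58 (adjusted p = 0.187). It spanned 3565 to 6719 normalized counts in controls and 5421 to 15515 in PTU pups. On the lower side, the sodium pump subunit *Atp1b2* had a log2 difference of -0.31 (adjusted p = 0.168), and *Aqp4*, the water channel of astrocyte endfeet, had -0.31 (adjusted p = 0.206). These 4 genes were picked after their values were seen, as examples of each side.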

How the data were processed

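The VZ transcriptome was measured in 13 male pups (7 control, 6 PTU). Per the methods and the submitters' processing notes, the authors trimmed reads with Trimmomatic, used STAR 2.7.8a with the mRatBN7.2 build and counted with the Partek Expectation/Maximization model, which divides reads among transcripts that share them. The deposited values are these estimated counts divided by a median ratio size factor per pup, a signal that is never negative. Channel genes with close relatives may share reads, which was not tested. The methods describe the captured RNA as partly degraded. The authors compared groups with DESeq2; the table also holds that comparison's p-values, FDR, ratios and group means, which were not used. Rows carry Ensembl identifiers and gene names but no coordinates.

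The depth of each pup was estimated from the step between its low values. Between 88.9 and 90.5% of values from 20 to 150 were within 0.05 of a whole multiple, too few to treat the values as reads. The test was therefore made on a log scale. Log2(normalized count + 1) values, which compress differences of low transcripts, of rows with a mean of 10 or more were fitted with limma 3.58.1 in R 4.3.3 (variance trend, two-sided, Benjamini-Hochberg over 14606 rows, threshold 0.05). Genes named with values were those with an unadjusted p under 0.05 (at most 30), those without overlap between groups, the gene of smallest p and of highest mean in each of 20 families, and the genes of the ratios. A few genes that this rule names, and 1 planned ratio, are not reported here. The members and lists were chosen with earlier results of these data known. Exact permutation tests, tables and figures used Python 3.11.15, pandas 2.3.3, numpy 2.4.6 and matplotlib 3.10.9, and the fits were tested on simulated data. Alternatives were pseudocounts of 0.1 and 10, no filter and a mean of at least 100, TMM factors (computed in R), quantile normalization, equal totals, rows of each gene summed, weighted pups, no variance trend, a robust variance prior, the replicate number as a block, each pup left out, and, chosen after seeing the data, voom on the estimated reads.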

Additional observations from a re-analysis of the deposited data

Results flagged for a closer look

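Among the 39 named genes whose values are reported here (2 of the 41 that the rule names are not), 3 ratios and the median over all channel genes, each group was searched for a pup whose gap to its nearest neighbour took up more of the group's range than Dixon's 95% limit allows. Of 86 groups searched, 13 had such a pup. The limit is set to flag about 1 in 20 of independent groups with a normal distribution. Most groups here were untransformed counts of the same pups, so the 13 cannot be weighed against that rate. PTU pup 1 was far above the other PTU exposed pups in 5 genes: *Scn2a* (4518 normalized counts, the next at 1526), *Cacna1d* (858.5, the next at 450.4), *Kcnmb4* (788.8, the next at 543.9), *Kcnip2* (560.0, the next at 287.6) and *Kcng2* (127.6, the next at 39.8). PTU pup 6 was far above its group in *Kcnd3* (1592, the next at 1156) and far below it in *Kcnj10* (995.1, the next at 1428), and PTU pup 4 was far below in *Kcnh2* (228.8, the next at 313.7). Among controls, pup 5 was far below the others in *Cacna2d2* (192.1, the next at 324.3) and *Scn3b* (1530.0, the next at 1830.0), pup 6 was far below in *Kcnd2* (517.8, the next at 724.1) and far above in the log2 ratio of *Cacnb3* to *Cacnb4* (2.95, the next at 2.28), and pup 1 was far above in *Cacna2d1* (868.5, the next at 529.1).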

How the results depend on the processing

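Counts, medians and most named genes were recomputed under 26 alternatives, the 6 named genes with a mean under 100 that drop out at the stricter minimum under 25, and the 3 ratios under 16. The count of channel genes past an adjusted p of 0.05 in limma stayed at 0 except without PTU pup 2, where it was 1 (*Cacnb3*), so the range over pups left out was 0 to 1. Of all 14606 rows, 179 passed without PTU pup 2, 40 with weighted pups, 18 with the replicate block and 7 without control pup 6, and 0 in the other settings. The count that was higher at an unadjusted p under 0.05 (17) became 27 with the same total for every pup and 31 with the replicate number as a block (10.1% of all rows were higher there), and ranged from 6 (without PTU pup 1) to 30 (without PTU pup 4) over pups left out; it was 7 without PTU pup 6, 10 without control pup 5, 11 without control pup 6 and 26 without PTU pup 2. The count that was lower (4) became 0 with the same total and ranged from 2 (without PTU pup 6) to 6 (without PTU pup 1). The median log2 fold change of the 99 genes ranged from 0.11 to 0.47; with the same total it was 0.47, where the median of all rows was 0.20. Fewer pups and a shift of all rows are part of how these alternatives are built; beyond that, the cause was not tested.

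Of the 41 genes that the rule names, 36 kept the direction of their log2 fold change under all alternatives. With the same total for every pup, *Cacng4* turned to 0.070, *Kcnj10* to 0.026 and *Kcnk10* to 0.20, and with weighted pups *Kcnk10* was 0.00298. Over pups left out, *Kcnk10* ranged from -0.044 to 0.039, *Kcnab1* from -0.058 to 0.33 and *Cacna2d1* from -0.12 to 0.29. The log2 ratio of *Scn2a* to *Scn3a* ranged from -0.27 to 0.21 over pups left out and that of *Cacnb3* to *Cacnb4* from -0.026 to 0.16. Replicate numbers belong to pups of different litters. Same-numbered pups correlated between -0.07 and 0.20 in their deviations from the group means, over 0.1 in 4 of 6 numbers. Of the 6 PTU exposed pups, 1 correlated best with its own number. The labels give the number as a replicate and name no pairing, and whether same-numbered pups shared a step of handling was not tested. The block leaves control pup 7 without a partner, so it adds nothing to that fit. Genes with a mean under 100, 34 of the 99, drop out at the stricter minimum, and their values rest on few reads.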

Other observations

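The libraries also held markers of other cells, none of which was at 0 in any pup, and no marker had a limma adjusted p of at most 0.05. All 7 interneuron markers lay above 0, with a median log2 difference (PTU minus control) of 0.24. At an unadjusted p under 0.05, 3 of them were higher, against 8.11% of all rows. Even so, PTU pup 1 had the lowest summed level among PTU pups (13492 normalized counts, against 22538 to 27903 in the others). All 7 markers of the oligodendrocyte lineage also lay above 0, with a median of 0.25, and 2 were higher at an unadjusted p under 0.05, against 8.11% of all rows. Among intermediate progenitor markers 3 of 4 lay below 0, with a median of -0.18. *Eomes* averaged 2407 ± 570.2 in controls (SD, n = 7) and 1682 ± 219.8 in PTU pups (SD, n = 6), a log2 difference of -0.49 (limma adjusted p = 0.150). The log2 difference was -0.34 for *Neurog2*, -0.03 for *Neurod1* and 0.01 for *Btg2*. The summed level of this list was highest of all pups in PTU pup 1 (7451 normalized counts). The endothelial, pericyte and microglia lists had medians of 0.24, -0.05 and 0.02, and the 4 ependymal markers with a row had a median of -0.11.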
